A study of Mus musculus with 24 samples.

Results

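DNA is copied in S phase by proteins encoded by a set of genes that dividing cells switch on together, and 33 of these genes are described here across 6 mouse cell populations. They were chosen by name, as a list of S phase and DNA replication genes, with earlier results of these data known. The counts of called genes below are therefore a description and not independent evidence. All 33 were found among the 23283 gene rows of the count table. By role they comprise 9 genes of the replicative helicase, 3 of origin licensing and firing, 10 of the polymerases with their sliding clamp, clamp loader and single-strand binding protein, 4 of nucleotide supply, 3 of Okazaki fragment joining and uracil repair, and 4 of chromatin assembly, chromatin remodelling and histone mRNA.

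Before S phase, Cdc6 and Cdt1 load the ring of Mcm2 to Mcm7 onto origins. Cdc45 and the GINS complex then join the ring, and with Mcm10 the helicase is activated. Primase and the polymerases copy the opened strands, held to DNA by the Pcna clamp, which the Rfc complex loads. Many of these genes are known targets of the E2F transcription factors, whose activity the retinoblastoma protein restrains until a cell commits to divide. Reprogramming of fibroblasts to pluripotency goes along with faster division, and the series was made to compare cells of different cycling speed in that setting.

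Libraries came from 6 groups. The 4 iPS libraries came from induced pluripotent stem cells no longer dependent on the factors, which carried an Oct4:GFP reporter, were sorted as GFP-positive and were grown without doxycycline. The 4 fast MEF and 4 slow MEF libraries were mouse embryonic fibroblasts kept for 6 days in embryonic stem cell medium with 2 µg/ml doxycycline to induce the Yamanaka factors. They were separated by the dilution of CFSE, a cell dye that is shared between daughters at each division, over 48 hours. The 4 bulk MEF libraries were untreated fibroblasts in medium with serum and no doxycycline; the labels call them slow and unsorted, although the protocol describes sorting into wells. The iPS libraries carry the label fast. The 5 fast GMP and 3 slow GMP libraries were granulocyte monocyte progenitors, blood cells committed to neutrophils and monocytes, grown with cytokines and separated by CFSE dilution over 24 hours. Every library was made from the cytoplasmic RNA of 1000 cells. Strain, genotype, age and the way the factors were delivered are not given in the labels used here. Fast and slow MEF differed from bulk MEF in induction, medium, dye and gate at once, so these cannot be told apart. Whether replicates came from separate animals, cultures or wells of 1 sort is not stated, so each p-value reflects library-to-library spread that may be technical only.

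Library totals ran from 2098846 to 18648132 counts, and the 8 GMP libraries were the shallowest at 2098846 to 4411526. Rn45s and Lars2, genes that collect ribosomal RNA reads, made up 19.9% to 48.9% of GMP libraries and 3.05% to 11.7% of all others. Fast GMP 1 detected 18402 genes, more than the 9380 to 14168 of its fellow GMP libraries. Summed over 8 genes, pluripotency markers stood at 1985 to 2874 CPM (counts scaled to library size in the usual way, with TMM factors over all 24 libraries) in iPS, against 0.567 to 21.8 CPM in bulk MEF. Over 8 fibroblast genes bulk MEF summed to 22233 to 39387 CPM. Progenitor markers summed to 5197 to 24849 CPM in the fast GMP libraries and 9860 to 17832 CPM in the slow GMP libraries.

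Short E2F-type motifs in the promoters of the replication genes are shown first, because several genes on which the results turn carry one. The RefSeq windows, of GRCm38.p6, run from 250 bases before a transcription start to 50 bases from it on; 28 of the 33 genes had a window, in 32 windows. The motifs searched, on both strands, were TTTCCCGC, TTTGGCGC, TTTCGCGC and TTTGCCGC, and matches may overlap. At least 1 of them was found in 11 of 32 windows (34.4%), of 11 genes, against 744 of all 32851 windows (2.26%). In a wider list of 46 other replication genes, taken up below, it was 13 of 44 windows (29.5%), so the share was not particular to the 33 genes. The 11 genes were Cdc6, Cdt1, Hells, Lig1, Mcm3, Mcm5, Mcm6, Mcm7, Pola1, Pold1 and Rfc3. The motif CCAAT was found in 17 of 32 windows (53.1%), against 37.4% of all windows and 52.3% of those of the wider list. Capitals mark the matches in these stretches of 30 bases, written 5′ to 3′ on the strand of the gene.
Mcm5: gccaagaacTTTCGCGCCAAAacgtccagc
Mcm6: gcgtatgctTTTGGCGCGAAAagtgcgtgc
Mcm3: acttccgtgGCGGGAAAacttgggaagttt
Cdt1: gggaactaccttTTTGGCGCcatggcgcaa
Cdc6: cggtggagaGCGGGAAAtcgcctggggtct
Lig1: ccaaagtgcGCGCGAAAtctgtgtggcgcg
Hells: ccaccgggtTTTCCCGCgaaagagaagcgc
The stretches lie at chr8:75109347-75109376 (+) for Mcm5, chr1:128359795-128359824 (-) for Mcm6, chr1:20820273-20820302 (-) for Mcm3, chr8:122568035-122568064 (+) for Cdt1, chr11:98908004-98908033 (+) for Cdc6, chr7:13278843-13278872 (+) for Lig1 and chr19:38930919-38930948 (+) for Hells. In Mcm5 and Mcm6, both subunits of the helicase ring, 2 motifs overlap on opposite strands in a run of 12 bases, TTTGGCGCGAAA in Mcm6 and its reverse complement in Mcm5. Positions were counted from 1 at the start base of the window used, with negative positions before it. The first match began at -153 in Mcm5, -110 in Mcm6, -138 in Cdc6 and -62 in Hells. In Mcm3 it began at 20, in Cdt1 at 33 and in Lig1 at 27. Further matches began at -149 in Mcm5, at -106 and -47 in Mcm6 and at 39 in Mcm3. Those at -47 and 39 are not marked in the stretches. For Mcm3, Mcm6 and Cdt1 the start base is the outer edge of the RefSeq gene. For Mcm5, Cdc6, Lig1 and Hells it lies further into the gene than that edge, so the matches of Cdc6, Lig1 and Hells fall within the gene as a whole. Lig1 had more than 1 window, and its match was found in only 1 of them. The run of 12 bases was found in 4 of 32851 windows (0.0122%), those of Mcm5, Mcm6, Msh3 and Mycn. Binding was not measured here, and a match in a window is not a bound site.

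Across the 6 groups the median level of the replication genes was highest in iPS and lowest in slow MEF. The median of the 33 genes, taken per library as log2 CPM with a prior count of 2, was 6.82 ± 0.18 in iPS, 5.52 ± 0.10 in fast MEF, 3.32 ± 0.54 in slow MEF and 3.84 ± 0.36 in bulk MEF (SD, n = 4 each). It was 5.75 ± 0.52 in fast GMP (n = 5) and 5.51 ± 0.18 in slow GMP (n = 3). No library of slow or bulk MEF reached the lowest library of any other group. Slow MEF spread from 2.56 to 3.83 and bulk MEF from 3.37 to 4.21, so these groups overlapped, as did the GMP groups. Group means on the log2 scale were highest in iPS for 23 of the 33 genes, in fast GMP for 5 and in slow GMP for 5. They were lowest in slow MEF for 26, in bulk MEF for 6 and in slow GMP for 1. These values describe the libraries and carry no test.

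**Figure D1:**
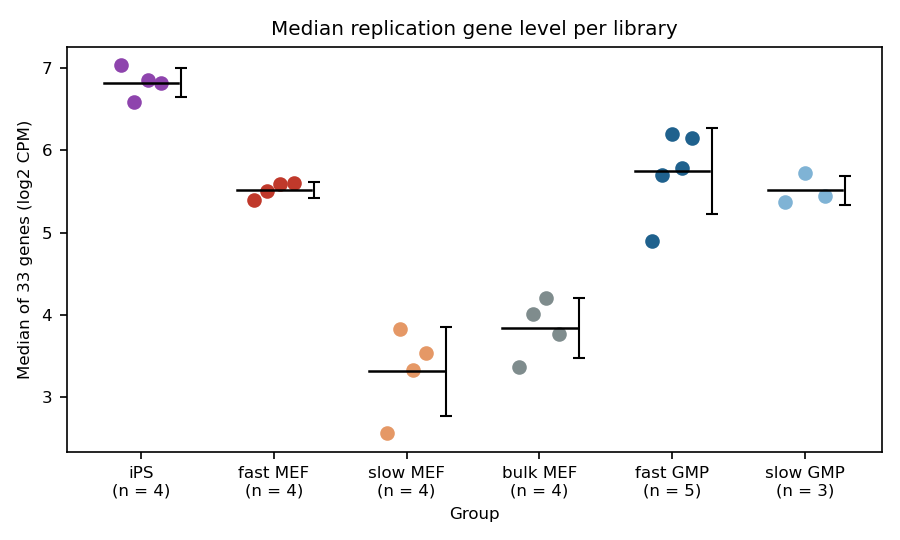
Median log2 CPM of the 33 replication genes in each library (points), with the group mean (line) and SD (error bar), for 6 groups on the horizontal axis. Slow and bulk MEF lie below the other groups, at means of 3.32 and 3.84, and iPS lie highest, at 6.82.

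Together the 33 genes took 0.655% to 0.785% of all counts in iPS libraries and 0.266% to 0.345% in fast MEF. The share was 0.0544% to 0.0605% in slow MEF and 0.0645% to 0.0882% in bulk MEF. In GMP it spread from 0.173% to 0.767% in fast and from 0.302% to 0.339% in slow libraries. Summed over the 33 genes, the median library stood at 5758.5 CPM in fast GMP and 5718.8 CPM in iPS. Fast GMP libraries ran from 1729 to 11489 CPM, so by this sum iPS were not above fast GMP. In populations of cells, fewer cells in S phase and less of these mRNAs per cell cannot be told apart. The spread between replicates differed by group. The median SD of the 33 genes was 0.33 in iPS, 0.37 in fast MEF, 0.88 in slow MEF, 0.64 in bulk MEF, 1.16 in fast GMP and 1.26 in slow GMP on the log2 scale.

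**Figure D2:**
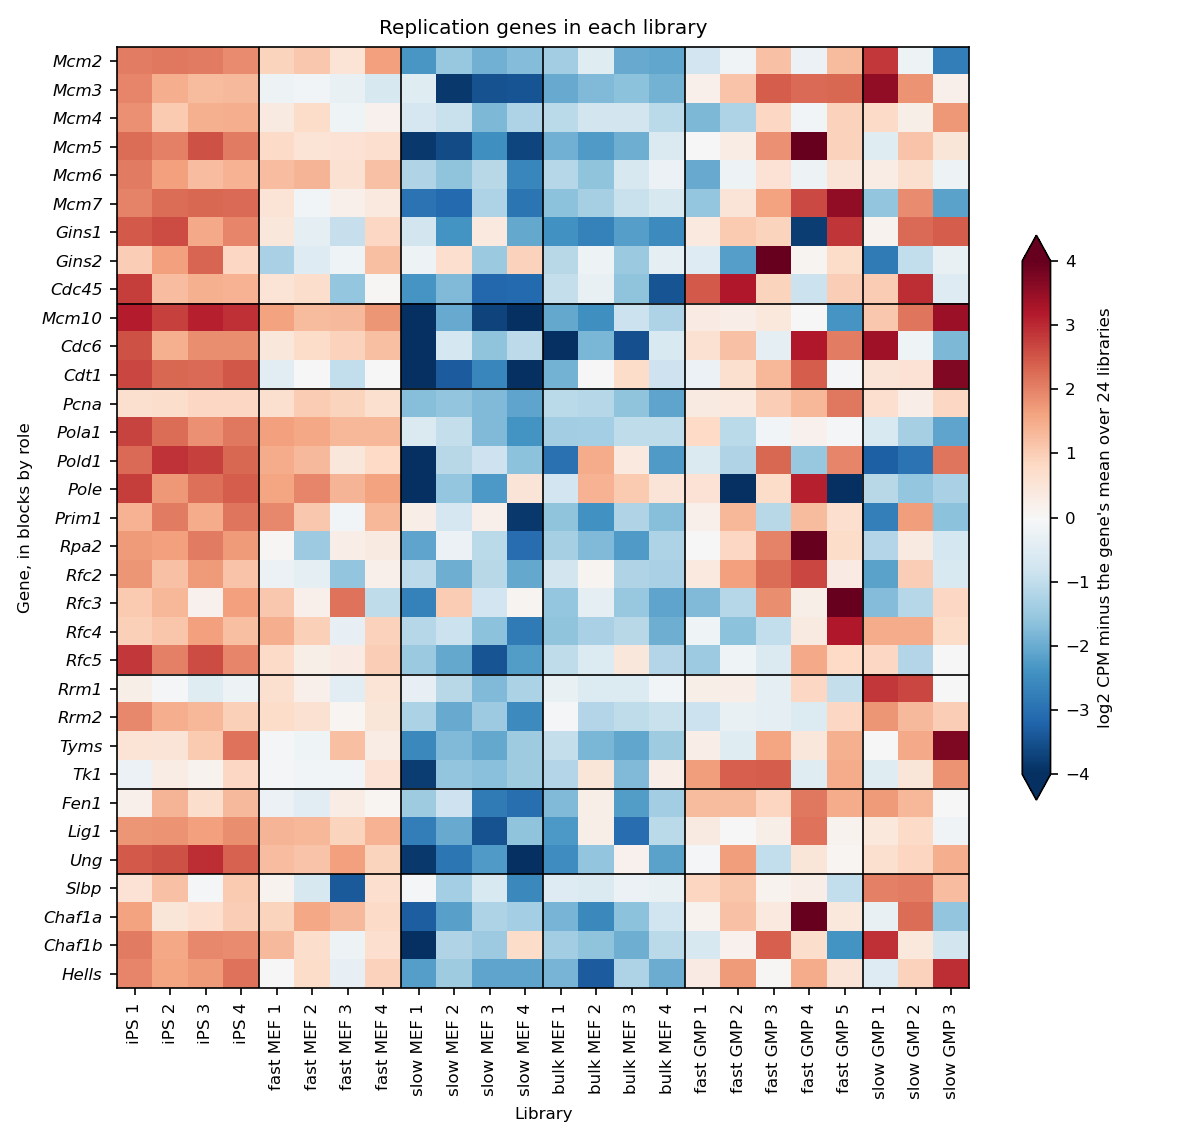
Log2 CPM of each replication gene (rows, in blocks by role) in each of 24 libraries (columns, in blocks by group), minus the mean of that gene over all libraries; colours stop at 4 above or below. The iPS and fast MEF blocks are mostly red, the slow and bulk MEF blocks mostly blue, and the GMP blocks mixed from library to library.

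Fast and slow MEF went through the same induction protocol and were compared to ask how the gates differ in replication genes. Of the 33 genes, 23 rose in fast MEF and none fell (edgeR quasi-likelihood test, Benjamini-Hochberg adjusted p under 0.05), while 31.7% of all 11742 genes tested passed in either direction, 14.4% rose and 17.3% fell. In 23 genes every fast library lay above every slow one, as in 18.4% of all genes, and in none below, as in 17.2%. The median log2 fold change was 2.27 over the 33 genes and -0.11 over all genes. In the helicase 6 of 9 genes rose, in licensing and firing 2 of 3, among polymerases and clamp 6 of 10, in nucleotide supply 4 of 4, in fragment joining and uracil repair 3 of 3, and in chromatin and histone mRNA 2 of 4.

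Mcm5, a subunit of the helicase ring, had the smallest p. It stood at 314, 269, 277 and 296 CPM in fast MEF, against 12.6, 15.3, 33.6 and 14.3 CPM in slow MEF. All fast libraries lay far above all slow ones, and the log2 fold change was 3.81 ± 0.36 (SE, n = 4 each, edgeR adjusted p = 6.84e-05). Mcm10, which helps activate the helicase at origins, had the largest change. It stood at 59.2, 47.2, 47.8 and 66.9 CPM in fast MEF, against 0.641, 4.65, 1.26 and 0 CPM in slow MEF, where replicate 4 had no read. The groups did not overlap, at 4.91 ± 0.97 (edgeR adjusted p = 0.00363), and slow MEF 2 was the highest of its group: without it the change was 6.33. Mcm10 passed the filter for low counts only with the reads of fast MEF, so only a rise was open to it.

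Pcna, the sliding clamp, stood at 159.5, 209, 190.0 and 159 CPM in fast MEF, against 31.1, 33.8, 29.9 and 23.5 CPM in slow MEF. Both groups were tight and did not overlap, at 2.48 ± 0.25 (edgeR adjusted p = 0.000103). Lig1, the ligase that joins Okazaki fragments, stood at 266, 265, 196 and 276 CPM in fast MEF, against 15.2, 25.6, 9.09 and 34.0 CPM in slow MEF. The lowest fast library was several times above the highest slow one, at 3.46 ± 0.40 (edgeR adjusted p = 0.000188). Chaf1a, the large subunit of the histone chaperone CAF-1, stood at 149, 233, 196 and 135 CPM in fast MEF, against 7.91, 17.5, 34.1 and 30.6 CPM in slow MEF. It too did not overlap, at 2.87 ± 0.45 (edgeR adjusted p = 0.00107). Rrm2, the small subunit of ribonucleotide reductase, stood at 113, 105, 72.0 and 95 CPM in fast MEF, against 27.9, 16.7, 24.9 and 11.5 CPM in slow MEF. Its change was smaller, at 2.12 ± 0.35, with no overlap (edgeR adjusted p = 0.00149).

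Other members of the same machines rose with them. In the helicase these were Mcm2 (2.83), Mcm4 (1.29), Mcm6 (2.53), Mcm7 (2.48) and Cdc45 (2.67), all as log2 fold changes of fast against slow MEF. Of the polymerases and their loader, Pola1 (2.71), Pold1 (2.48), Pole (2.58), Rfc4 (2.47) and Rfc5 (2.71) rose. Ung, which removes uracil from DNA, rose by 4.40 ± 0.56, Cdt1 by 3.20 ± 0.61, and Hells, a chromatin remodeller, by 2.27 ± 0.48. In nucleotide supply the thymidylate synthase Tyms rose by 2.26 ± 0.47, the thymidine kinase Tk1 by 1.87 ± 0.48 and the large reductase subunit Rrm1 by 1.21 ± 0.39. The flap nuclease Fen1 rose by 1.61 ± 0.55 (edgeR adjusted p = 0.0475). Like Mcm10, the genes Cdc45, Pola1, Pole, Rfc4 and Ung passed the filter for low counts only with the reads of fast MEF. A fall was hardly open to them, and they are counted among the genes that rose.

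The 10 genes that did not pass were Mcm3, Gins1, Gins2, Cdc6, Prim1, Rpa2, Rfc2, Rfc3, Slbp and Chaf1b. Gins2, a GINS subunit, was the 1 gene with a negative change, at -0.25 ± 0.60 (interval -1.57 to 1.07). Slbp, which binds the stem-loop of histone mRNAs, was at 0.55 ± 0.91 (interval -1.46 to 2.55). In slow MEF 1 Mcm3 had 110.3 CPM against 10.5 to 13.9 CPM in the other slow libraries, and without it Mcm3 was at 3.20 (edgeR adjusted p = 0.000196). Cdc6 also passed without slow MEF 1 (1.82), Chaf1b without slow MEF 4 (2.45) and Rfc2 without fast MEF 3 (1.26).

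Of the 23 genes, 17 passed whichever library was left out. Mcm4 and Cdc45 did not pass without fast MEF 2 (1.14 and 2.44). Fen1 passed only without slow MEF 2 among the fits that left out a library, Pole only without slow MEF 1 or 4 (3.98 without 4), Rfc4 only without slow MEF 2 or fast MEF 3, and Rrm1 only without slow MEF 1 or fast MEF 3; adjusted p otherwise ran from 0.0526 to 0.105. Mcm7 was at 3.16 without slow MEF 3. With all 24 libraries in 1 fit 15 of the 33 genes rose and none fell.

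Marker lists of other cell types differed between the gates, several of them through 1 gene. Over 8 fibroblast genes, all detected, the summed level was 1888 to 4794 CPM in fast MEF and 40527 to 79536 CPM in slow MEF, and each of the 8 was lower in every fast library. Over 6 keratinocyte genes the sum was 6495 to 11688 CPM in fast MEF and 35.5 to 559 CPM in slow MEF, and Krt14 alone made up 6464 to 11666 CPM in fast MEF and 33.4 to 559 CPM in slow MEF. Krt5 and Trp63, which define basal keratinocytes, stayed at or below 1.04 CPM in fast MEF, and Dsg3 stood at 20.3 to 29.8 CPM there. The 6 mast cell and basophil genes summed to 331 to 387 CPM in fast MEF and 6.30 to 34.1 CPM in slow MEF, of which Gata2 held 330.3 to 386 CPM in fast MEF. Cpa3 and Ms4a2, which define mast cells and basophils, were at 0 in fast MEF, and Mcpt8 stood at 0 to 0.726 CPM in fast MEF against 3.79 to 12.9 CPM in slow MEF. Over 8 pluripotency genes the sum was 24.6 to 122 CPM in fast MEF and 3.83 to 5.78 CPM in slow MEF. Pou5f1, itself a Yamanaka factor, held 20.1 to 112 CPM of it in fast MEF, and none of the other 7 genes passed 6.78 CPM there. The part of the Krt14, Gata2, Pou5f1 and fibroblast differences in the rise of the replication genes was not tested.

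Another 46 genes of replication, drawn up as a wider list and also with earlier results known, were read beside the 33. Of 44 that were tested between fast and slow MEF, 20 rose and 1 fell, with a median log2 fold change of 1.61. Pole2, the second subunit of the leading strand polymerase, rose by 4.84 ± 1.05 (3.43 ± 1.36 CPM in fast MEF against 0.0942 ± 0.111 CPM in slow MEF, where 2 libraries had no read), and the nuclease and helicase Dna2 by 4.72 ± 0.94 (14.0 ± 6.03 CPM in fast MEF against 0.484 ± 0.442 CPM in slow MEF). Dna2 was at 5.42 without slow MEF 1. Recql4 was at 3.73 and passed in 2 of the 8 fits that left out a library. Pole2, Dna2 and Recql4 passed the filter for low counts only with the reads of fast MEF, so only a rise was open to them. Pold4, the smallest subunit of polymerase delta, went the other way. It stood at 47.4, 19.6, 14.4 and 16.7 CPM in fast MEF, against 143, 99.7, 171 and 93.9 CPM in slow MEF, at -2.50 ± 0.43 (edgeR adjusted p = 0.00178). The catalytic subunit of the same enzyme, Pold1, averaged 63.4 ± 20.0 CPM in fast MEF against 10.4 ± 6.68 CPM in slow MEF.

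**Figure D3:**
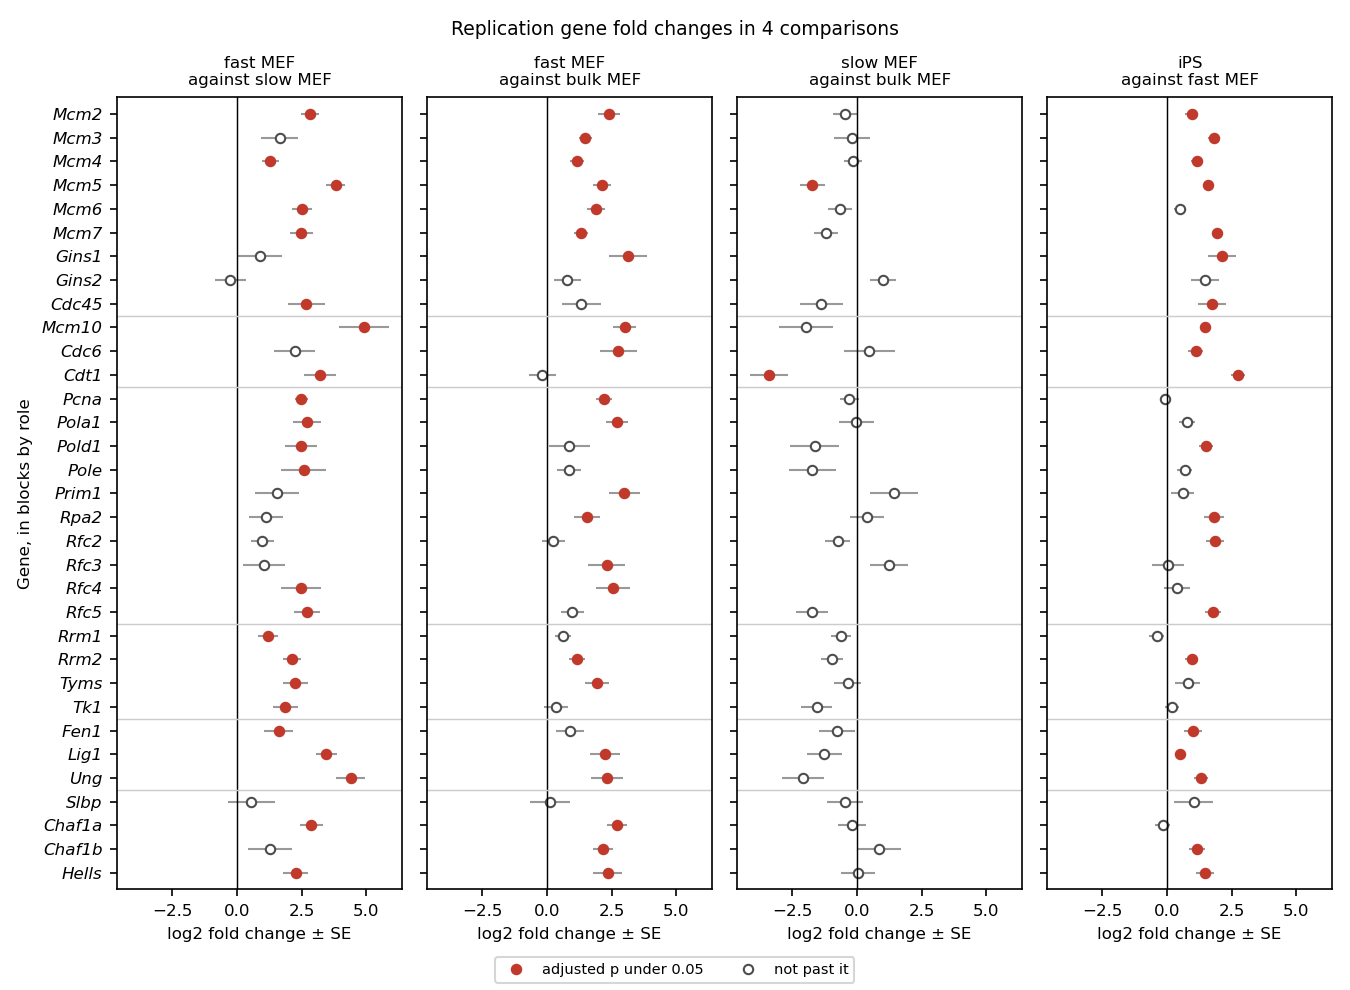
Log2 fold change with its SE of each replication gene in 4 comparisons; filled points passed an edgeR adjusted p of 0.05 and open points did not. Gins1 and Rfc4 were not tested in slow against bulk MEF. The panels of fast against slow MEF, fast against bulk MEF and iPS against fast MEF lie mostly right of 0, and in slow against bulk MEF only Cdt1 and Mcm5 are filled, both to the left.

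Set against untreated bulk MEF, fast MEF were higher in 22 of the 33 genes and lower in none, while 34.9% of all 11335 genes tested passed, 16.5% rose and 18.4% fell. In 20 genes every fast library lay above every bulk library (18.9% of all genes) and in none below (18.4%). The median log2 fold change was 1.90 over the 33 genes and -0.05 over all. Fast and slow MEF share the bulk MEF libraries as their comparison, and fast MEF libraries enter more than 1 comparison, so the values below are set side by side without a test between them.

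Pcna had the smallest p, at 159.5, 209, 190.0 and 159 CPM in fast MEF, against 47.8, 45.9, 33.1 and 23.2 CPM in bulk MEF. The groups did not overlap, at 2.21 ± 0.30 (edgeR adjusted p = 0.000328). Gins1, a GINS subunit, had the largest change, at 4.45, 2.38, 1.56 and 5.83 CPM in fast MEF, against 0.392, 0.281, 0.506 and 0.340 CPM in bulk MEF. Bulk MEF held only 3 to 5 reads of it per library, and the change was 3.12 ± 0.73 (edgeR adjusted p = 0.00752). Gins1 and Rfc4 passed the filter for low counts only with the reads of fast MEF, so only a rise was open to them. Chaf1a stood at 21.9, 13.2, 25.5 and 45.5 CPM in bulk MEF, all below the fast MEF libraries given above, at 2.71 ± 0.40 (edgeR adjusted p = 0.000515). Tyms stood at 28.9, 27.0, 71.4 and 38.2 CPM in fast MEF, against 16.0, 8.42, 7.09 and 11.5 CPM in bulk MEF. It did not overlap either, at 1.93 ± 0.47 (edgeR adjusted p = 0.00904).

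The whole Mcm ring rose against bulk MEF: Mcm2 (2.39), Mcm3 (1.48), Mcm4 (1.16), Mcm5 (2.12), Mcm6 (1.90) and Mcm7 (1.31). Mcm10 rose by 3.00 ± 0.44 and Cdc6 by 2.76 ± 0.71, or 3.69 without bulk MEF 4. The primase subunit Prim1 (2.99), Pola1 (2.72), Rfc4 (2.54), Rrm2 (1.17), Chaf1b (2.16) and Hells (2.35) rose too. Prim1, with 10 reads in bulk MEF 2, also passed the filter for low counts only with the reads of fast MEF, so a fall was hardly open to it. Lig1 rose by 2.24 ± 0.59, or 3.13 without bulk MEF 2, and Ung by 2.33 ± 0.62, or 3.33 without bulk MEF 3.

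Genes that did not pass against bulk MEF included Rrm1 at 0.61 ± 0.31 (edgeR adjusted p = 0.145) and Tk1 at 0.34 ± 0.46 (edgeR adjusted p = 0.596). Cdt1 had the 1 negative value, -0.17 ± 0.53, with an interval of -1.34 to 0.99. Fen1, Pold1, Pole, Rfc2, Rfc5, Cdc45, Gins2 and Slbp were the others, at 0.11 for Slbp to 1.33 for Cdc45. Fen1 passed without bulk MEF 2 (1.71), Rfc5 without bulk MEF 3 (1.48) and Rrm1 without fast MEF 3 (0.84).

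Of the 22 genes, 20 passed whichever library was left out. Rpa2, of the single-strand binding protein, was at 1.56 ± 0.50 and did not pass without bulk MEF 2 or 3 or fast MEF 1, 3 or 4 (edgeR adjusted p = 0.0554 to 0.0826). The clamp loader gene Rfc3, at 2.32 ± 0.71, did not pass without bulk MEF 1, 3 or 4 or fast MEF 3, and was 1.57 without fast MEF 3. With all 24 libraries in 1 fit, 10 of the 33 genes rose. In the wider list 20 of 45 genes rose and 2 fell. Orc1, of the origin recognition complex, rose most, by 3.66, and passed in 5 of the 8 fits that left out a library. The kinase Cdc7, which triggers origin firing, rose by 3.56 ± 0.90 and Pole2 by 3.50 ± 0.77. All 3 had few or no reads in bulk MEF and were tested only through the reads of fast MEF, so only a rise was open to them. Pold4 fell, at -1.72 ± 0.47 (edgeR adjusted p = 0.0155, and 0.0582 without fast MEF 2). Pole4 fell as well, at -1.42, and passed in 2 of the 8 fits that left out a library.

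Beside these changes, fibroblast markers summed to 1888 to 4794 CPM in fast MEF and 22233 to 39387 CPM in bulk MEF. Over 7 macrophage genes the sum was 5.02 to 29.2 CPM in fast MEF and 182 to 299 CPM in bulk MEF, with C1qc at 0 to 7.03 CPM in fast MEF and 77.8 to 159 CPM in bulk MEF. Keratinocyte markers summed to 6495 to 11688 CPM in fast MEF and 3.23 to 24.3 CPM in bulk MEF, which in fast MEF was nearly all Krt14. Their part was not tested.

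Between slow MEF and bulk MEF few replication genes passed the test, and none was higher in slow MEF. Of 31 genes tested, 2 were lower, Cdt1 and Mcm5, while 10.5% of all 11253 genes passed, 5.51% were higher and 4.99% lower. In 4 genes every slow library lay below every bulk library (9.54% of all genes) and in none above (9.15%). Gins1 and Rfc4 had too few reads to be tested. The median log2 change was -0.62 over the 31 genes and 0.03 over all genes, and 24 of the 31 values were negative.

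Cdt1, which loads the Mcm ring at origins together with Cdc6, stood at 1.07, 3.26, 5.55 and 1.27 CPM in slow MEF, against 9.11, 34.8, 58.0 and 19.4 CPM in bulk MEF. The groups did not overlap although bulk MEF varied widely, and the change was -3.40 ± 0.73 (edgeR adjusted p = 0.0143). Cdt1 passed whichever library was left out. Mcm5 stood at 12.6, 15.3, 33.6 and 14.3 CPM in slow MEF, against 49.3, 38.2, 48.1 and 124 CPM in bulk MEF. The groups did not overlap, at -1.72 ± 0.49 (edgeR adjusted p = 0.0453). Bulk MEF 4 was the highest, and without it the change was -1.23 (edgeR adjusted p = 0.131). Mcm5 also missed the threshold without bulk MEF 1 or 3 or slow MEF 1, 2 or 4 (edgeR adjusted p = 0.0570 to 0.105).

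Among genes that did not pass, Mcm10 was at -1.97 ± 1.05 (edgeR adjusted p = 0.26), Ung at -2.08 ± 0.80 (0.126), Rfc5 at -1.74 ± 0.62 (0.0986) and Tk1 at -1.56 ± 0.60 (0.126). Pcna was at -0.30 ± 0.36 with an interval of -1.09 to 0.49, Chaf1a at -0.18 ± 0.53 with -1.35 to 0.98, and Pola1 at -0.02 ± 0.68 with -1.51 to 1.47. Mcm3 was lower without slow MEF 1 (-1.76), Mcm7 without slow MEF 3 (-1.89) and Pole without slow MEF 4 (-3.18). With all 24 libraries in 1 fit no gene passed, and with DESeq2 5 were lower. Fibroblast markers summed to 40527 to 79536 CPM in slow MEF and 22233 to 39387 CPM in bulk MEF. Macrophage markers summed to 2.15 to 108 CPM in slow MEF and 182 to 299 CPM in bulk MEF, without overlap. Krt14 stood at 33.4 to 559 CPM in slow MEF and 1.47 to 6.92 CPM in bulk MEF; the keratinocyte sum was 35.5 to 559 CPM in slow MEF and 3.23 to 24.3 CPM in bulk MEF. The part of these in the changes was not tested. In the wider list 1 of 38 tested genes was lower, Rnaseh2a, a subunit of the nuclease that clears ribonucleotides from DNA. It was at 13.1 ± 2.39 CPM in slow MEF and 51.8 ± 16.7 CPM in bulk MEF (-1.94 ± 0.38, edgeR adjusted p = 0.00923).

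Read side by side, the genes differed in where fast, slow and bulk MEF lay. Cdt1 averaged 28.2 ± 8.32 CPM in fast MEF, 2.79 ± 2.09 CPM in slow MEF and 30.3 ± 21.3 CPM in bulk MEF (SD, n = 4 each). Chaf1a averaged 178 ± 45.0 CPM in fast MEF, 22.5 ± 12.1 CPM in slow MEF and 26.5 ± 13.6 CPM in bulk MEF. For Cdt1 fast and bulk MEF overlapped and slow MEF lay below both, whereas for Chaf1a slow and bulk MEF overlapped and fast MEF lay above both. Mcm5 fell between these patterns, at 289 ± 20.2 CPM in fast MEF, 19.0 ± 9.81 CPM in slow MEF and 64.8 ± 39.6 CPM in bulk MEF, with no overlap between any pair of groups.

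**Figure D4:**
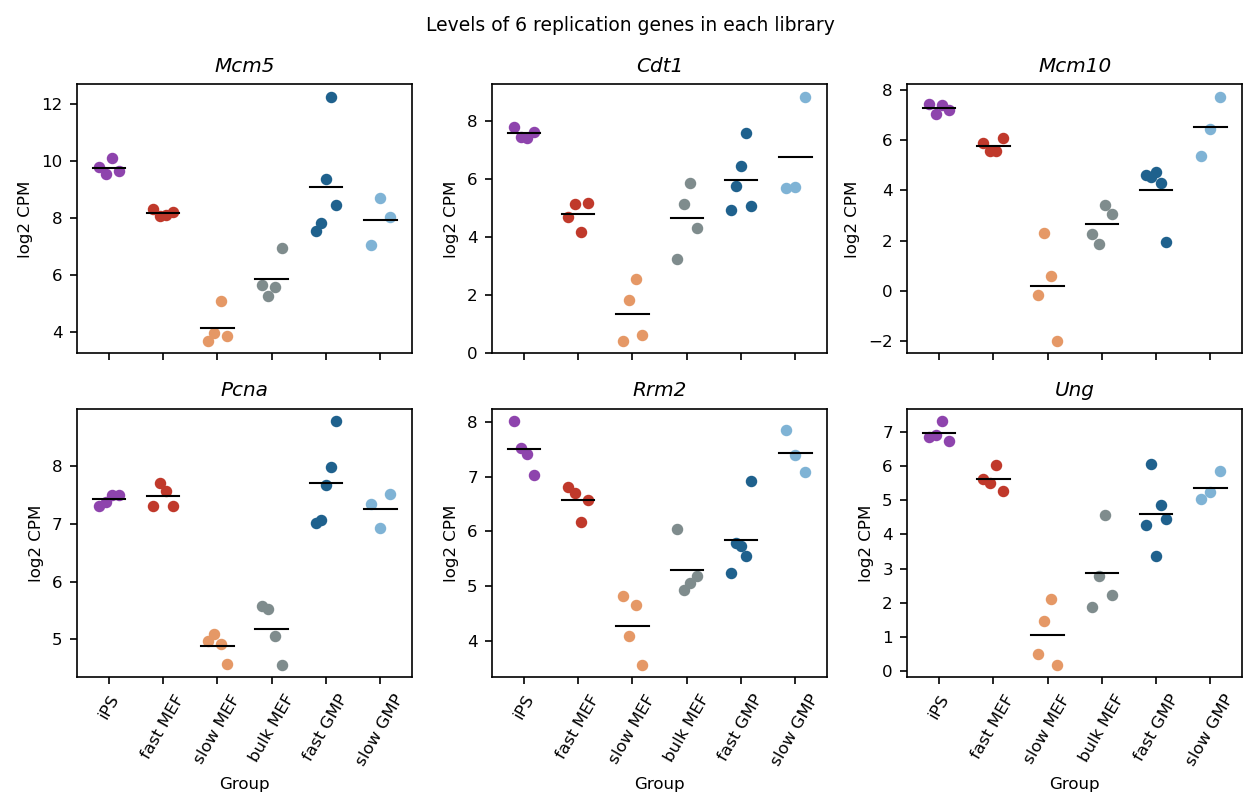
Log2 CPM of 6 replication genes in each library (points) of 6 groups (horizontal axis), with the group mean as a line. Cdt1 lies lower in slow MEF than in fast and bulk MEF, Pcna overlaps between iPS and fast MEF, and Mcm10 and Rrm2 are lower in fast than in slow GMP in every library.

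Nearly every replication gene was higher in iPS, the end of reprogramming, than in bulk MEF, its start. Of the 33 genes, 30 rose in iPS and none fell, while 47.4% of all 11736 genes tested passed, 24.1% rose and 23.3% fell. In 30 genes every iPS library lay above every bulk library (24.5% of all genes) and in none below (22.8%). The median log2 fold change was 2.81 over the 33 genes and 0.10 over all. All 9 helicase genes, all 3 licensing genes, all 10 polymerase and clamp genes and all 3 genes of fragment joining and uracil repair passed. In nucleotide supply 2 of 4 did, and in chromatin and histone mRNA 3 of 4.

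Mcm3, a subunit of the Mcm ring, had the smallest p. It stood at 608, 424, 375 and 384 CPM in iPS, against 38.7, 45.7, 50.3 and 42.0 CPM in bulk MEF, with every iPS library far above the bulk libraries (3.34 ± 0.26, edgeR adjusted p = 1.33e-05). Gins1 had the largest change, at 18.6, 21.0, 9.56 and 13.1 CPM in iPS, against the 0.281 to 0.506 CPM of bulk MEF (5.32 ± 0.58, edgeR adjusted p = 7.17e-05). Both Gins1 and Rfc4 had too few bulk MEF reads to be tested without those of iPS, so only a rise was open to them. Cdc45 and Prim1 also passed the filter for low counts only with the reads of iPS, so a fall was hardly open to them. Rpa2 stood at 83.6, 80.3, 107 and 84.4 CPM in iPS, against 10.1, 7.30, 5.06 and 10.8 CPM in bulk MEF. It was uniform in both groups and did not overlap, at 3.43 ± 0.35 (edgeR adjusted p = 5.06e-05). Hells stood at 61.4, 47.0, 51.4 and 71.2 CPM in iPS, against 4.11, 1.31, 6.48 and 3.74 CPM in bulk MEF, again without overlap (3.88 ± 0.51, edgeR adjusted p = 0.000234). Among the rest Mcm10 (4.54), Cdc6 (3.94), Mcm5 (3.78), Ung (3.71) and Prim1 (3.66) rose most.

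The 3 genes that did not pass were Rrm1, Tk1 and Slbp. Rrm1 stood at 56.5, 46.1, 34.5 and 41.6 CPM in iPS, against 39.2, 32.7, 32.5 and 44.0 CPM in bulk MEF. The ranges overlapped, and the change of 0.28 ± 0.30 had an interval of -0.39 to 0.94 (edgeR adjusted p = 0.473). Its partner Rrm2 rose by 2.18 ± 0.35. Tk1 was at 0.60 ± 0.49 (-0.48 to 1.68), where bulk MEF ran from 22.6 to 108 CPM. Slbp was at 1.21 ± 0.48 (edgeR adjusted p = 0.0607, and 0.0495 without iPS 3).

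Of the 30 genes, 28 passed whichever library was left out. Pold1, at 2.44 ± 0.83, did not pass without bulk MEF 3 or 4 or iPS 1, 2 or 3 (edgeR adjusted p = 0.0548 to 0.0691), and Pole did not pass without iPS 1 (1.36). Several changes were larger without 1 bulk library: without bulk MEF 2 Pold1 was at 3.41, Lig1 at 3.71 and Fen1 at 2.77, while Ung was at 4.71 without bulk MEF 3 and Cdc6 at 4.87 without bulk MEF 4. In the wider list 30 of 45 genes rose and 2 fell. Orc1, a subunit of the origin recognition complex, rose by 5.24 ± 0.93 (6.18 without bulk MEF 1), the alternative clamp loader subunit Chtf18 by 4.44 ± 0.73 and Pole2 by 4.25 ± 0.69. Orc1 and Pole2 passed the filter for low counts only with the reads of iPS, so only a rise was open to them. Chtf18, at 1.02 CPM in bulk MEF 4, also passed it only with those reads. Rrm2b, the reductase subunit known to be induced by p53, fell, at 0.457, 1.48, 1.02 and 0.320 CPM in iPS, against 15.4, 2.81, 5.87 and 5.67 CPM in bulk MEF. The iPS libraries all lay below the bulk libraries, at -3.15 ± 0.77 (edgeR adjusted p = 0.00737) and -2.51 without bulk MEF 1. Rrm2b passed the filter for low counts only with the reads of bulk MEF, so only a fall was open to it. Pold4 fell as well, at -2.07 ± 0.42. Fibroblast markers summed to 95.1 to 352 CPM in iPS and 22233 to 39387 CPM in bulk MEF, and macrophage markers to 16.0 to 55.6 CPM in iPS and 182 to 299 CPM in bulk MEF. Their part in these changes was not tested.

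Most replication genes were higher in iPS than in fast MEF, the other population labelled fast that took part in reprogramming. Of the 33 genes, 20 were higher in iPS and none lower, while 38.4% of all 11882 genes tested passed, 18.8% were higher and 19.7% lower. In 20 genes every iPS library lay above every fast library (19.9% of all genes) and in none below (20%). The median log2 fold change was 1.12 over the 33 genes and 0.00 over all.

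Cdt1 had both the smallest p and the largest change. It stood at 221, 174, 169 and 195 CPM in iPS, against 25.5, 34.4, 17.7 and 35.4 CPM in fast MEF. Every iPS library lay far above every fast library, at 2.75 ± 0.26 (edgeR adjusted p = 5.61e-05). Mcm7, of the helicase ring, stood at 887, 1055, 1097 and 1069 CPM in iPS, against 326, 206, 255 and 290.2 CPM in fast MEF. The groups were again apart, at 1.92 ± 0.19 (edgeR adjusted p = 6.14e-05). Rrm2 stood at 260.2, 185, 171 and 130.2 CPM in iPS, against the 72.0 to 113 CPM of fast MEF (0.96 ± 0.25, edgeR adjusted p = 0.0124). Of the clamp loader, Rfc2 (1.85) and Rfc5 (1.79) were higher in iPS, while Rfc3 was at 0.04 ± 0.63 and Rfc4 at 0.39 ± 0.50.

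Pcna did not differ past the threshold between iPS and fast MEF. It stood at 159, 167, 182 and 182 CPM in iPS, against 159.5, 209, 190.0 and 159 CPM in fast MEF, and the change of -0.07 ± 0.19 had an interval of -0.48 to 0.35. Chaf1a stood at 245, 111, 128 and 158 CPM in iPS, against 149, 233, 196 and 135 CPM in fast MEF, with -0.17 ± 0.29 and an interval of -0.82 to 0.49. Rrm1 had the lowest value, -0.40 ± 0.29 (-1.04 to 0.25), and Tk1 was at 0.19 ± 0.29 (-0.45 to 0.83). These intervals leave room for changes of either sign. Mcm6 (0.50), Pola1 (0.78), Pole (0.68), Prim1 (0.61), Tyms (0.80), Slbp (1.03) and Gins2 (1.48) did not pass either.

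Of the 20 genes, 17 passed whichever library was left out. Cdc45, at 1.73 ± 0.54, had iPS 1 at 60.2 CPM against 20.8 to 23.7 CPM in the other iPS libraries. It was at 1.24 without iPS 1 (edgeR adjusted p = 0.0931) and did not pass without fast MEF 4. Fen1 (62.4 ± 22.1 CPM in iPS and 31.0 ± 7.12 CPM in fast MEF) and Lig1 (0.51) each missed the threshold in 6 of the 8 fits that left out a library, with adjusted p from 0.0535 to 0.117. Fen1 kept its call only without iPS 1 or fast MEF 3, and Lig1 only without iPS 1 or 3. Gins2 passed without iPS 4 (1.66) or fast MEF 4 (2.15). With all 24 libraries in 1 fit 1 of the 33 genes passed. In the wider list 12 of 45 genes were higher in iPS and 2 lower. Timeless, of the fork protection complex, was at 2.73 ± 0.27, the polymerase epsilon subunit Pole4 at 2.52 ± 0.34 and the polymerase alpha subunit Pola2 at 1.85 ± 0.41. Rrm2b was lower, at -2.63 ± 0.71, at 0.821 ± 0.536 CPM in iPS and 5.25 ± 2.00 CPM in fast MEF. Here it passed the filter for low counts only with the reads of fast MEF, so only a lower value in iPS was open to it. Dck was lower too, at -1.48, and passed in 4 of the 8 fits that left out a library.

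Markers differed between these groups as well. Pluripotency markers summed to 1985 to 2874 CPM in iPS and 24.6 to 122 CPM in fast MEF, and fibroblast markers to 95.1 to 352 CPM in iPS and 1888 to 4794 CPM in fast MEF. Krt14 stood at 1.22 to 7.24 CPM in iPS and 6464 to 11666 CPM in fast MEF. Their part in the differences of the replication genes was not tested.

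Fast and slow GMP, in which cycling speed was gated without reprogramming factors, showed no replication gene past the threshold. None of the 33 genes and none of all 10057 genes tested (0%) passed with edgeR. At an unadjusted edgeR p under 0.05 there were 3 of the 33 genes and 742 of all 10057, which are similar shares. DESeq2 called 72 genes higher and 25 lower, no replication gene among them. With all 24 libraries in 1 fit, edgeR called 173 genes higher and 212 lower, among them 1 replication gene, Rrm1, as lower (adjusted p = 0.0383). The median log2 fold change was 0.15 over the 33 genes and 0.12 over all, with 18 values positive and 15 negative.

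The 3 genes at an unadjusted p under 0.05 were Mcm10, Rrm1 and Rpa2. Mcm10 stood at 24.3, 23.2, 26.0, 19.6 and 3.58 CPM in fast GMP, against 41.3, 85.7 and 212 CPM in slow GMP. Every fast library lay below every slow one, at -2.56 ± 0.91 (edgeR adjusted p = 0.662). Rrm1 stood at 56.5, 58.1, 37.5, 84.8 and 24.3 CPM in fast GMP, against 341, 307 and 47.7 CPM in slow GMP. Slow GMP 3 lay within the fast range, and the change was -2.14 ± 0.84 (edgeR adjusted p = 0.662). Rpa2 stood at 25.7, 45.6, 101, 645 and 42.3 CPM in fast GMP, against 11.1, 32.4 and 15.5 CPM in slow GMP. Here fast GMP 4 stood far above all other libraries, at 3.12 ± 1.28 (edgeR adjusted p = 0.662).

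Mcm10, Rrm2 and Slbp, 3 of the 33 genes, were lower in every fast than in every slow GMP library, as were 1.78% of all genes tested, and no replication gene was higher in every fast library (1.68% of all). Rrm2 stood at 37.3, 55.1, 52.8, 46.4 and 120.3 CPM in fast GMP, against 230.4, 168 and 135 CPM in slow GMP, at -1.49 ± 0.77 (edgeR adjusted p = 0.679). Single libraries departed widely: Mcm5 reached 4842 CPM and Chaf1a 1452 CPM in fast GMP 4, and Gins2 1281 CPM in fast GMP 3. Intervals were correspondingly wide, -1.07 to 2.26 for Pcna and -0.31 to 4.74 for Mcm5. Over the wider list none of 40 tested genes passed. Over 7 macrophage genes the sum was 464 to 864 CPM in fast GMP and 286 to 430 CPM in slow GMP, where C1qa was at 0, and each of the 7 genes overlapped between the groups. Its part in the values was not tested. The GMP libraries had the fewest counts and the largest share of Rn45s and Lars2 given above, and the part of either in these wide intervals was not tested.

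**Figure D5:**
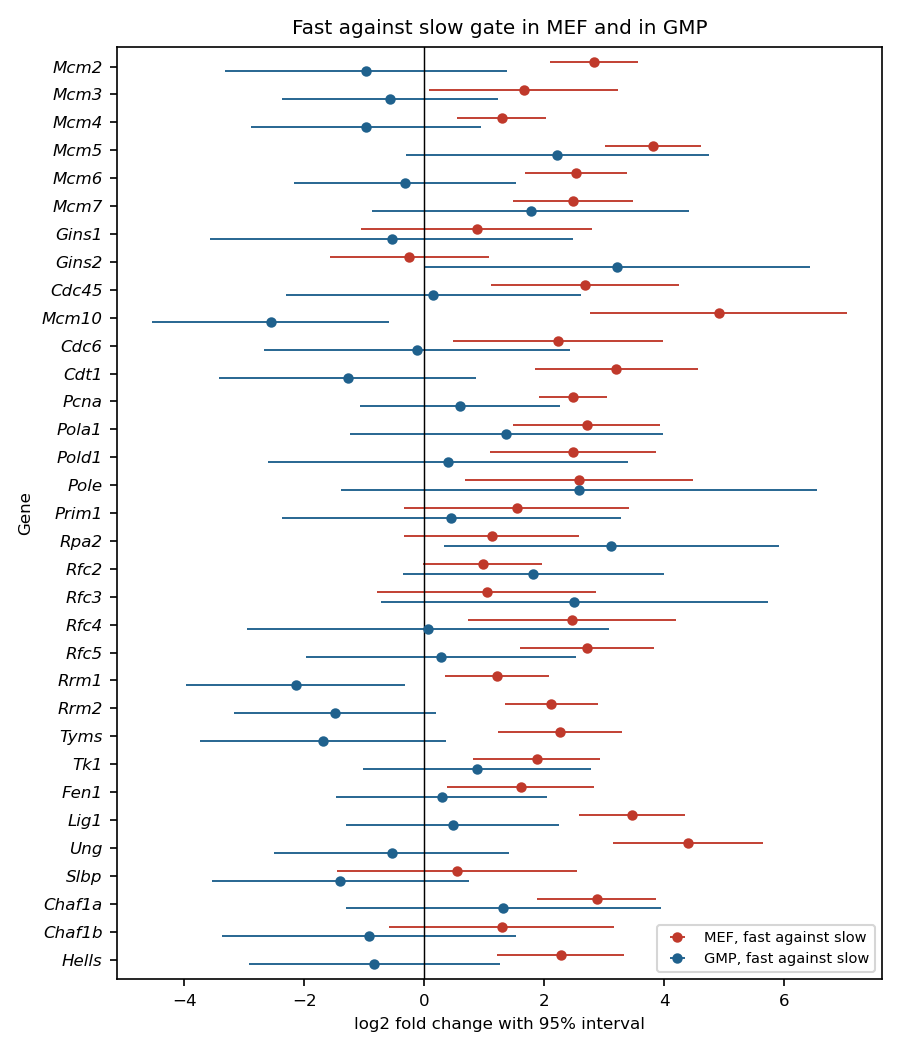
Log2 fold change of fast against slow libraries with its 95% interval for each replication gene, in MEF (red) and in GMP (blue). The MEF intervals lie mostly right of 0, and the GMP intervals are wider and nearly all cross 0, apart from Mcm10, Rrm1 and Rpa2.

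Whether the gate went along with replication genes differently in MEF and in GMP was tested as an interaction over the 16 libraries of the gated groups. It passed for 3 of the 33 genes, Mcm10, Ung and Rrm2, all with the larger value in MEF, while 1.4% of all 13814 genes passed, 0.601% in that direction and 0.796% in the other. The difference of log2 changes was 7.51 ± 1.42 for Mcm10 (edgeR adjusted p = 0.0125), 4.94 ± 1.02 for Ung (0.022) and 3.65 ± 0.81 for Rrm2 (0.0305). Ung stood at 49.1, 45.3, 64.4 and 38.1 CPM in fast MEF, against 1.18, 2.53, 4.04 and 0.881 CPM in slow MEF, which did not overlap. In GMP it stood at 19.2, 66.1, 10.1, 28.8 and 21.5 CPM in fast and 32.3, 37.3 and 56.8 CPM in slow libraries, which did. For Mcm10 and Rrm2, given above, fast libraries were the higher ones in MEF and the lower ones in GMP, without overlap in either.

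For the other genes the interaction did not pass, so a different response to the gate was not shown for them. Cdt1 was at 4.46 ± 1.19 (edgeR adjusted p = 0.0645), Rrm1 at 3.41 ± 0.92 (0.0657), Lig1 at 3.03 ± 0.85 (0.0693) and Pcna at 1.92 ± 0.72 (0.146). Mcm10 passed whichever library was left out, at 8.87 without slow MEF 2 and 6.76 without slow GMP 3. Ung missed the threshold without slow MEF 1, 2 or 4 (edgeR adjusted p = 0.0503 to 0.0569), and Rrm2 in 8 of the 16 fits that left out a library, those without slow GMP 1, any slow MEF library, or fast MEF 1, 2 or 4 (edgeR adjusted p = 0.0523 to 0.0748). Without fast GMP 2 Ung was at 5.59. Fits that left out fast GMP 4 called 7 genes, with Mcm5 (3.51), Lig1 (3.79), Cdt1 (5.20) and Rrm1 (3.72) added. DESeq2 called 11 of the 33 genes, and a fit of all 24 libraries also called 11. With the replicate number as a block 0 passed, with Mcm10 at an edgeR adjusted p of 0.0715, although the numbers were not taken to pair libraries.

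The promoter windows can be set beside these calls as counts, with no test. Between fast and slow MEF 8 of the 11 genes with a match rose, as did 13 of the 17 genes that had a window without one, with median log2 fold changes of 2.48 and 2.26. Between slow and bulk MEF 2 of the 11 genes with a match were lower, Cdt1 and Mcm5. Of the 16 tested genes with a window and no match, 0 were lower. Mcm5 lost its call in most fits that left out a library, and a link to the motif was not tested. The genes that passed the interaction, Mcm10, Ung and Rrm2, carried none in their window. In iPS against bulk MEF all 11 genes with a match rose, and 14 of the 17 without.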

How the data were processed

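RNA-seq libraries were made from polyadenylated cytoplasmic RNA of 1000 cells each, per the labels' protocols. The authors deposited whole-number read counts per gene symbol for 23283 genes in 24 libraries, without normalization. The tools named in the submitters' processing notes are TopHat2 2.0.4, HTSeq and CASAVA 1.8.2, with the build mm9; for what each was used, with which annotation, settings and strandedness, is not given in the sources used here. Groups and replicate numbers came from the titles.

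From these counts, each pair of groups was fitted alone with edgeR 4.0.16 in R 4.3.3 (filterByExpr, TMM factors, robust quasi-likelihood F test, two-sided), with Benjamini-Hochberg adjustment over all genes tested and a threshold of 0.05; the interaction used the 4 gated groups in 1 fit. The SE is the absolute log2 fold change divided by the square root of F, and intervals are 95%. A gene with few reads in 1 group was kept by filterByExpr through the other group. Such a gene could only be called higher in that other group. Printed CPM use TMM factors over all 24 libraries. DESeq2 1.42.0, other scaling factors, no low-count filter, a fit of all 24 libraries, a replicate block, thinning to 2098846 counts, leaving out Rn45s and Lars2, and leaving out each library were the alternatives. The scripts were tested on simulated data. Over 37 pairs of libraries of the same group, none held identical values, and the chi-square per degree of freedom was at least 48.7.

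The 33 genes and the other lists were chosen with earlier results of these data known. All 33 may be named. Values in every library are given for the gene with the smallest p, the called gene with the largest change, up to 4 more of different roles, and genes called against the majority. Of 46 wider replication genes 45 matched a row, and up to 3 called genes at each end are named. Where a gene or library was singled out beyond this, it was chosen after its values were seen. Gene symbols were matched to RefSeq promoter windows of GRCm38.p6, whose coordinates were not mixed with mm9; Gins1, Gins2, Mcm4, Pole and Rfc2 had no window. Python 3.11.15 drew the figures with matplotlib 3.10.9.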

Additional observations from a re-analysis of the deposited data

Results flagged for a closer look

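Of 165 pairs of a replication gene and a group of 4 or 5 libraries, 11 had 1 library far from the others, and chance sets a library apart in about 1 in 20 groups, or 8.25 of the 165. All values here are log2 CPM. In fast MEF, Lig1 was lowest in replicate 3 at 7.61, and Tk1 was highest in replicate 4 at 6.85. In slow MEF, Mcm3 was highest in replicate 1 at 6.79, Mcm7 in replicate 3 at 6.56 and Hells in replicate 2 at 2.58, whereas Tk1 was lowest in replicate 1 at 2.48. In iPS, Cdc45 was highest in replicate 1 at 5.92 and Rpa2 in replicate 3 at 6.75. In fast GMP, Lig1 and Chaf1a were both highest in replicate 4, at 8.90 and 10.50, and Mcm10 was lowest in replicate 5 at 1.94.

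For 3 genes the difference between fast and slow libraries was itself different in MEF and in GMP by the edgeR interaction test. The difference in MEF minus that in GMP was 7.51 for Mcm10, 4.94 for Ung and 3.65 for Rrm2 on the log2 scale.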

How the results depend on the processing

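No replication gene was called in the opposite direction under any alternative run. With all 24 libraries in 1 fit, 15 of the 33 genes rose in fast against slow MEF, 10 in fast against bulk MEF and 1 in iPS against fast MEF; 0 were lower in slow against bulk MEF, 1 was lower in fast against slow GMP, and 11 passed the interaction. Over all genes, separate fits called 1691 higher and 2035 lower in fast against slow MEF, against 590 and 656 in the fit of 24 libraries. The same pairs of counts were 1869 and 2089 against 822 and 691 for fast against bulk MEF, 620 and 561 against 38 and 18 for slow against bulk MEF, 2828 and 2738 against 1502 and 1668 for iPS against bulk MEF, 2229 and 2339 against 681 and 994 for iPS against fast MEF, 0 and 0 against 173 and 212 for GMP, and 83 and 110 against 491 and 578 for the interaction. DESeq2 called 1021 and 955 of all genes in slow against bulk MEF and 532 and 1031 for the interaction. In slow against bulk MEF, 1 replication gene was lower with upper-quartile factors, 5 with DESeq2 and 1 after thinning to the smallest library. For the interaction, 11 passed with DESeq2 and 5 after thinning. Leaving out 1 library gave 17 to 23 genes in fast against slow MEF, 21 to 22 in fast against bulk MEF, 28 to 30 in iPS against bulk MEF, 18 to 19 in iPS against fast MEF, 1 to 3 lower in slow against bulk MEF, 0 in GMP and 1 to 7 for the interaction. The median level of the 33 genes moved to 7.04 in iPS, 5.74 in fast MEF and 5.76 in slow GMP without Rn45s and Lars2, to 5.37 in fast MEF and 5.72 in slow GMP with DESeq2 size factors, and to 5.38 in fast MEF and 5.77 in slow GMP with upper-quartile factors. With DESeq2 size factors the median interaction over all genes was -0.48, against -0.33 with TMM. The cause of these shifts was not tested.

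Libraries with the same replicate number correlated at -0.06 to 0.08 in their deviations from the group means, and not every library correlated best with its own number, so the numbers were not taken to pair libraries. With the replicate number as a block, 1 replication gene was lower in slow against bulk MEF and 0 passed the interaction (edgeR adjusted p = 0.0715 for Mcm10, 0.0704 for Ung and 0.0697 for Rrm2, with 1 higher and 14 lower of all genes); the other counts of replication genes moved by at most 1.5 times. After thinning to 2098846 counts, the smallest GMP total, 22 replication genes rose in fast against slow MEF.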
